A study of Homo sapiens with 6 samples.

Results

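The genes described here were the cancer-testis genes of 22RV1 cells, and DDX53 among them. A gene was a member when its identifier belonged to a protein-coding gene of the MAGEA to MAGEF, GAGE, PAGE, XAGE, SSX, CTAG, SPANX or CT families, or was DDX53, PRAME, PRSS21, SYCP1, TEX101 or BRDT. The table listed 17811 genes, and 25 of them were members. A further 92 of the 117 protein-coding genes that the rule covers in the GENCODE release 29 annotation had no line in the table. No GAGE, MAGEB, MAGEC, SPANX, XAGE or CT47 gene was listed, nor were SYCP1, TEX101 and BRDT, while 7 of 12 MAGEA genes were. Only uniquely mapped reads were counted, so genes with near-identical copies can be missing even where they are transcribed. A missing line thus does not show that a gene was silent. DDX53 and PRSS21 were picked for the way their values differ between the groups, so their values are given as a description, without a test and outside every count of called genes. The other 23 members were tested.

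22RV1 is a human prostate carcinoma cell line that expresses the androgen receptor. Poly(A)-selected RNA was sequenced from cells that stably express a short hairpin RNA against luciferase (shLuc, the control, which has no target in human cells), against IMPA1 (shIMPA1) or against IMPDH2 (shIMPDH2), with 2 libraries per group and 6 in all. IMPA1 is the gene of an inositol monophosphatase, an enzyme that frees inositol from its phosphates, and the product of IMPDH2 limits the rate at which cells make guanine nucleotides. Each knockdown was represented by 1 named hairpin line, so the target, the hairpin and the line cannot be told apart. The labels do not state whether a line was a clone or a pool, nor whether libraries of one group were grown apart, so each p-value covers the spread among the libraries alone, and that spread may be technical.

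Cancer-testis genes are normally transcribed in germ cells of the testis and kept silent in most other adult tissues, in large part by DNA methylation of their promoters. Many lie on the X chromosome in families of near-identical copies, and tumours often transcribe some of them, which has made their proteins targets of immunotherapy. MAGE proteins share a domain through which they bind RING-type ubiquitin ligases. The label holds for only a portion of the members: MAGED1, MAGED2, MAGEE1, MAGEF1, SSX2IP and the 3 CTAGE genes share a name or a domain with the antigens but are broadly transcribed relatives, which leaves 15 tested members of testis-restricted families beside 8 such relatives.

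The libraries held between 20828900 and 27773294 reads. The deposited values were read counts divided by 1 factor per library, and are called normalized counts below. The targeted genes were lower in their own lines. IMPA1 was at 1621 and 1331 in shLuc and at 957 and 1101 in shIMPA1, a log2 fold change of -0.52 ± 0.13 (SE; limma adjusted p = 0.0145, and 0.159 without shLuc replicate 1). IMPDH2 was at 4269.9 and 5032 in shLuc and at 2932 and 3166 in shIMPDH2, a log2 fold change of -0.61 ± 0.13 (limma adjusted p = 0.00999), and that call was lost without shLuc replicate 2 or either shIMPDH2 library (highest adjusted p = 0.127). All 10 genes of a prostate luminal marker list were read, with a summed level of 124325 to 126822 in shLuc, 95770.3 to 98129 in shIMPA1 and 102236 to 109243 in shIMPDH2. By gene, 2 were called higher and 4 lower in shIMPA1, and 4 higher and 2 lower in shIMPDH2, and the sum was led by KRT8, at 71625 and 63788 in shLuc, at 58623 and 52886 in shIMPA1, and at 40649.6 and 46452 in shIMPDH2. As a check on other cell types, 7 of 12 markers of spermatids, stroma, endothelium and leukocytes were not listed, among them the spermatid genes PRM1, PRM2 and TNP1 and the leukocyte gene PTPRC. The 5 that were listed, all stromal genes, summed to 1279.9 and 1409 in shLuc, to 339.9 and 439.8 in shIMPA1 and to 308 and 314 in shIMPDH2. Of these, 4 were called lower in each knockdown line, beside 16.2% and 9.15% of all genes. COL1A1 was not called in shIMPA1, at a log2 fold change of -0.19 ± 0.18 (limma adjusted p = 0.443). COL3A1 was not called in shIMPDH2 (limma adjusted p = 0.124). VIM, an intermediate filament gene of mesenchymal cells, was lower in shIMPA1 and shIMPDH2, at log2 fold changes of -4.04 ± 0.18 and -3.40 ± 0.18 (limma adjusted p = 2.0e-07 and 1.56e-06). In a bulk library, fewer cells of one kind and less RNA per cell cannot be told apart, and the part of the stromal genes in the results on cancer-testis genes was not tested.

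DDX53 encodes a DEAD-box RNA helicase first known as the cancer antigen CAGE, and it was read in the control line and close to unread in both knockdown lines. It lies at chrX:22999961-23003589 on the plus strand (GRCh38, GENCODE 29), inside the span of PTCHD1-AS, a long non-coding RNA gene on the opposite strand. The bases before its start are shown because the gene's values differ most between the lines of all members. The 250 bases upstream, from RefSeq on GRCh38.p14 (chrX:22999710-22999959, plus strand), held 12 CpG pairs and 2 copies of the Ets core CCGGAA, in capitals, that begin 82 and 21 bases before the start:
DDX53: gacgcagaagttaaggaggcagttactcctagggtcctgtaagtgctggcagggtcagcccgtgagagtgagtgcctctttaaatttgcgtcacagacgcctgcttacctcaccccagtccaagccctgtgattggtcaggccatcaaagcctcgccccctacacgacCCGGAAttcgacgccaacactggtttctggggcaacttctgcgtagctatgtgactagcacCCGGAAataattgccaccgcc
Of 35116 RefSeq promoter windows of that length, 14.5% held CCGGAA on either strand and the median window held 11 CpG pairs. Among the windows of protein-coding genes these were 17.95% and 16. Such a match is a description of letters and does not show that a factor was bound.

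DDX53 was at 203 and 213 normalized counts in shLuc, at 1.80 and 1.73 in shIMPA1, and at 0 and 1.12 in shIMPDH2. Both control libraries lay far above all 4 knockdown libraries, and the groups did not overlap. These values came from 226 and 243 reads in shLuc, from 2 reads in each shIMPA1 library, and from 0 reads and 1 read in shIMPDH2. Per read and scaled for depth, the level in shLuc was 118 times that in shIMPA1, with a 95% counting interval of 45.9 to 436, and 365 times that in shIMPDH2, with an interval of 65.2 to 14450. Such intervals cover counting error only. A count of 0 in shIMPDH2 replicate 1 allows a level of up to 3.47 normalized counts. The difference between the knockdown lines rests on 4 reads against 1 and is within counting error, at a ratio of 3.09 with an interval of 0.306 to 152. DDX53 passed the filter on low values only through shLuc. All 100-base windows of its transcript were unique among annotated transcripts, so no other annotated transcript holds the same stretch. The labels do not say whether the libraries were stranded, and reads of DDX53 and of PTCHD1-AS cannot be told apart where their exons overlap.

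None of the 8 listed genes nearest to DDX53 was called lower in both lines by limma with the mean-variance trend. Over all genes 16.2% were called lower in shIMPA1 and 9.15% in shIMPDH2, and the share lower in both was not computed. The starts of these neighbours lie 75797 to 1143974 bases from that of DDX53, so some are far from it. YY2, PHEX and PRDX4 were not called in either line. PTCHD1-AS was at 14.4 and 14.0 in shLuc, at 8.08 and 9.49 in shIMPA1, and at 8.09 and 6.75 in shIMPDH2, so that all 4 knockdown libraries lay below the controls. Neither difference from shLuc was called (limma adjusted p = 0.282 and 0.190), but both were called lower without the mean-variance trend (limma adjusted p = 0.0362 and 0.0243). PTCHD1, a membrane protein gene whose start lies 334055 bases downstream, was at 257 and 235 in shLuc, at 169 and 217 in shIMPA1, and at 221 and 201 in shIMPDH2, without a call (limma adjusted p = 0.135 and 0.406). Both of these genes were read in all 6 libraries. Of the 8 listed genes nearest to DDX53, 4 on each side by start, ACOT9 rose in shIMPA1 by 1.32 ± 0.22 on the log2 scale (limma adjusted p = 0.00152) and the pseudogene FAM3C2P by 1.09 ± 0.26 (limma adjusted p = 0.00932). The FAM3C2P call was lost without either shLuc library (highest adjusted p = 0.101), and leaving out shIMPA1 replicate 2 gave 0.71. SMS, the spermine synthase gene, fell by 0.41 ± 0.12 in shIMPA1 and rose by 0.55 ± 0.12 in shIMPDH2 (limma adjusted p = 0.0281 and 0.0125), and both calls were lost without either shLuc library or either shIMPDH2 library (highest adjusted p = 0.208 and 0.145).

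PRSS21 encodes testisin, a membrane-anchored serine protease of germ cells, and it was lower than the control in one knockdown line and higher in the other. It was at 85.5 and 95.4 normalized counts in shLuc, at 23.3 and 24.2 in shIMPA1, and at 169 and 198 in shIMPDH2. The shIMPA1 libraries lay below both controls and the shIMPDH2 libraries above them, with no overlap between any of the groups. On the log2 scale the differences from shLuc were -1.88 in shIMPA1 and 1.01 in shIMPDH2. PRSS21 lies at chr16:2817180-2826304 on the plus strand (GRCh38, GENCODE 29), and its transcript shared no 100-base window with another gene.

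PRSS41, a gene of the same protease family, lies upstream on the same strand at chr16:2798485-2805302, with its start 18695 bases before that of PRSS21. PRSS41 was at 0 in both shLuc libraries, at 0 and 0.863 in shIMPA1, and at 65.8 and 77.6 in shIMPDH2. It was thus read at more than 1 read only in the line where PRSS21 was highest, and it passed the filter on low values only through that line. Its 126 reads in shIMPDH2 against 0 in shLuc made the level at least 53.9-fold higher, with 3 reads over the group as the floor, and against 1 read in shIMPA1 the ratio was 163 with a counting interval of 28.8 to 6498. With no filter on low values, PRSS41 was called higher in shIMPDH2 than in shLuc (limma adjusted p = 0.000118). That setting added only 69 genes to the 17742 tested, so it hardly lifts the selection. The call is thus no independent sign of the difference.

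The upstream sequences of PRSS21 and PRSS41 are shown because these neighbours were both high in shIMPDH2. Over 232 aligned bases of their 250-base windows, 209 were identical (90.1%). Capitals mark the Sp1 box GGGCGG, which reads CCGCCC here since it lies on the opposite strand. The PRSS21 stretch is chr16:2816987-2817179 and leaves out the 57 bases nearest the start, which an annotated exon covers, and the PRSS41 stretch is chr16:2798220-2798469 (RefSeq, GRCh38.p14, plus strand):
PRSS21: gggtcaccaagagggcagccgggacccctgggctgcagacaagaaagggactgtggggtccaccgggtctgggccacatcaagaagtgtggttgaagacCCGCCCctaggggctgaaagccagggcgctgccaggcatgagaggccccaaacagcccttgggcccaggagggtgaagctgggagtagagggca
PRSS41: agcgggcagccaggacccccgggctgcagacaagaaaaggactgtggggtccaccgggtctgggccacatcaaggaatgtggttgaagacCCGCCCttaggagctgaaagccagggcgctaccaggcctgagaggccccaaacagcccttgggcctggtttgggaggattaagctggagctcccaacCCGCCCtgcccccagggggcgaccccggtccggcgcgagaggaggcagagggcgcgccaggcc
A Sp1 box began 151, 46 and 41 bases before the start of PRSS21, the last pair within the bases left out, and 160 and 63 bases before that of PRSS41. Of all 35116 windows, 42.6% held a Sp1 box, and of those of protein-coding genes 53.7%.

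Other genes beside PRSS21 had other patterns. ZG16B, a secreted lectin gene with its start 12989 bases downstream, was at 203.4 and 203.0 in shLuc, at 724 and 906 in shIMPA1, and at 1087 and 1136 in shIMPDH2. It rose in both lines, including shIMPA1, where PRSS21 was low, by 1.99 ± 0.14 and 2.45 ± 0.14 on the log2 scale (limma adjusted p = 5.62e-06 and 2.29e-06). PRSS22, a further protease gene of the cluster, rose in shIMPA1 by 0.57 ± 0.19 (limma adjusted p = 0.0378, and 0.264 at the highest without a shLuc or shIMPDH2 library). The pseudogene PRSS30P was called higher in shIMPA1 at 2.07 ± 0.49 (limma adjusted p = 0.00966), a call lost without either shLuc library or shIMPA1 replicate 2 (highest adjusted p = 0.0829), at 1.24 in the last case. In shIMPDH2 it was at 20.8 and 22.5, above 7.2 and 6.13 in shLuc, a difference of 1.57 ± 0.49 without a call (limma adjusted p = 0.0511), which was called without either shIMPA1 library, with only the compared groups in the fit and with a pseudocount of 0.5. SRRM2, ELOB and 2 non-coding genes, AC092117.1 and AC003965.2, were the other neighbours and were not called in either line.

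**Figure D1:**
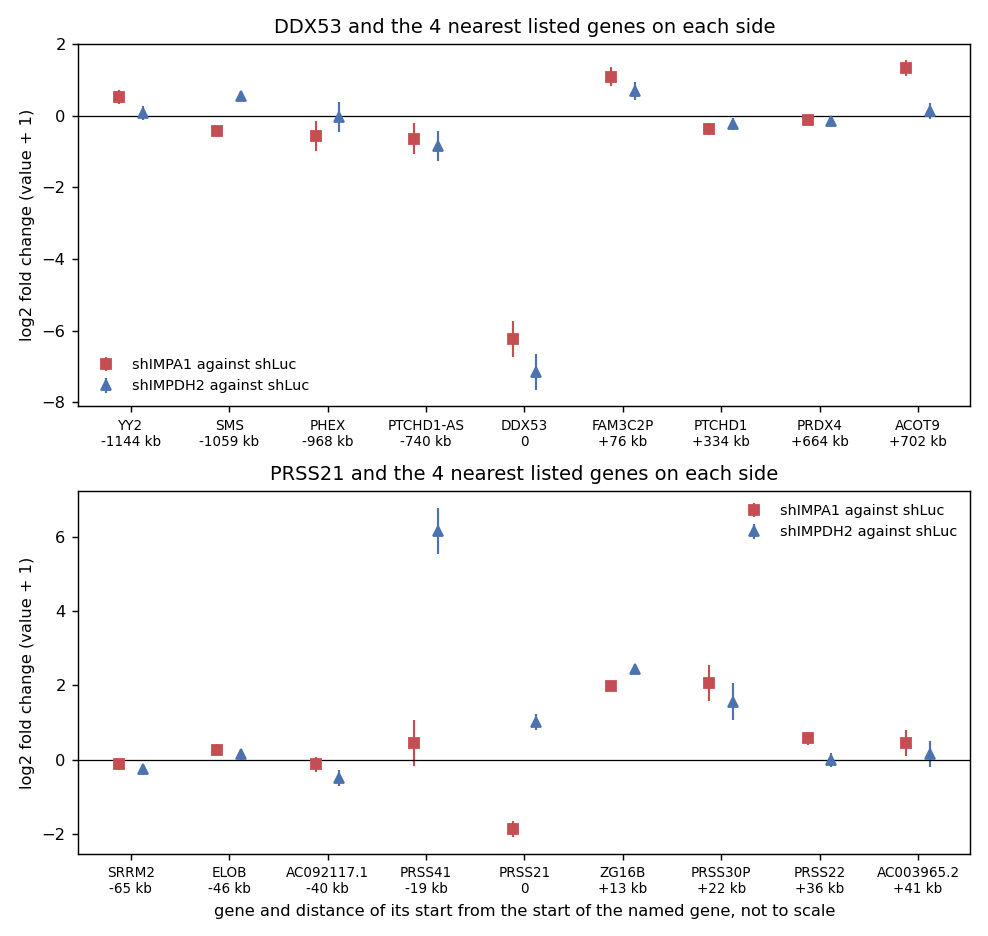
Log2 fold changes against shLuc, on the log2(normalized count + 1) scale with limma standard errors as bars, for DDX53 (top) and PRSS21 (bottom) and the 4 nearest listed genes on each side, in genomic order and not to scale. DDX53 stands below -6 in both lines while its neighbours lie between -0.86 and 1.32, and PRSS41 stands at 6.18 in shIMPDH2 against a control group at 0, where the plotted value depends on the added 1.

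Among all members, the highest levels belonged to the MAGEA and CTAG families. Summed over the 25 members, normalized counts made up 0.123% to 0.160% of a library, and the 7 MAGEA genes supplied 50% to 56.3% of that sum. Per kilobase of annotated exon, CTAG2 was highest in every group, at a mean of 4275 normalized counts in shLuc, 5325 in shIMPA1 and 4791 in shIMPDH2, followed by MAGEA1 at 2562, 1838 and 2727. In shIMPA1 the next genes, MAGEA3 at 1833 and MAGEA4 at 1820.4 per kilobase, stood closer to MAGEA1 than the libraries of any of these genes stood to each other, so their order there is not resolved. The same held in shIMPDH2 for MAGEA1 and MAGEA4, at 2727 and 2581. On the same scale DDX53 was placed 14th of 25 in shLuc, at 57.3 per kilobase, and last in both knockdown lines, at 0.485 and 0.155.

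**Figure D2:**
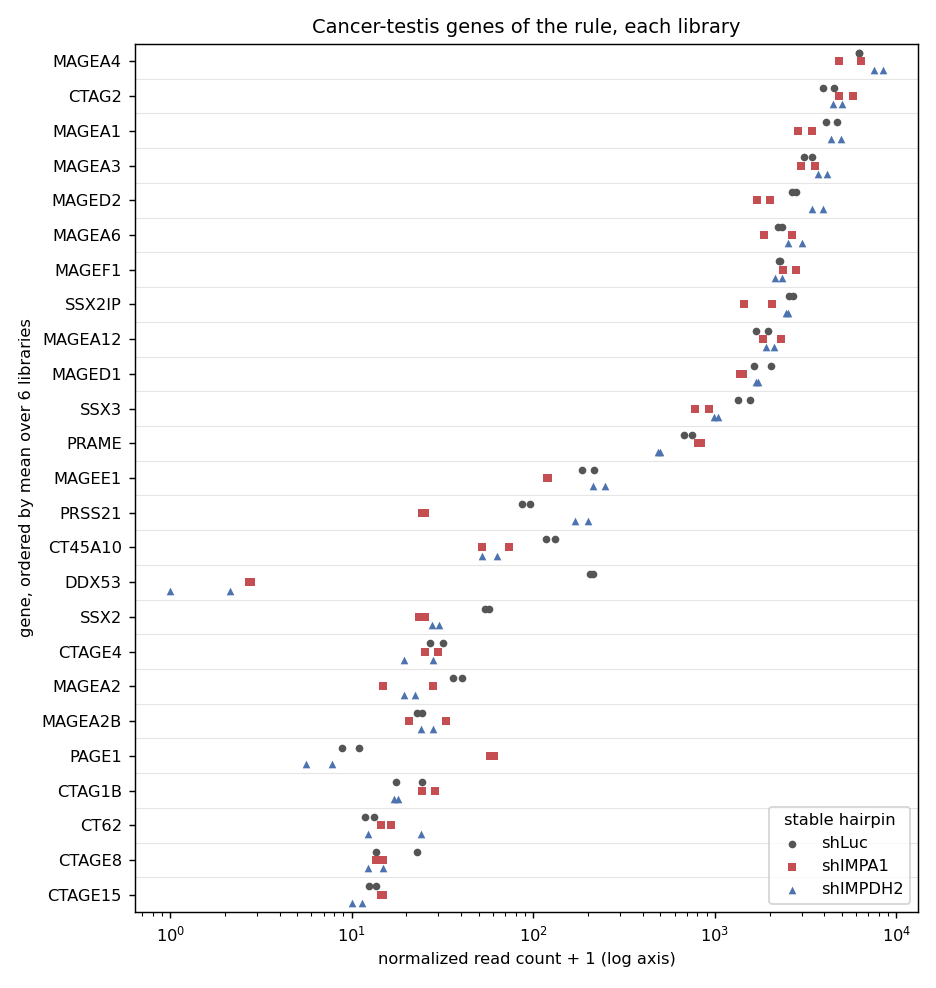
Normalized read count plus 1, on a log axis, of each of the 25 genes in each of the 6 libraries (circles shLuc, squares shIMPA1, triangles shIMPDH2), ordered by the mean over all libraries. Most genes keep their level within a narrow band across groups, whereas DDX53, PRSS21 and PAGE1 spread widely.

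Counts of called members leave out PAGE1, which passed the filter on low values only through the group where it is high, so that 22 members were counted. Against shLuc, shIMPA1 had 8 of the 22 called by limma at an adjusted p under 0.05, all of them lower, beside 30.2% of all 17742 genes tested, 14.0% higher and 16.2% lower. The median log2 fold change of the members was -0.13 and that of all genes 0.02. Without shLuc replicate 1 the count was 3 and without shLuc replicate 2 it was 1, while it lay between 7 and 12 without any other library. In shIMPDH2, 5 of 22 members were called, 1 higher and 4 lower, beside 17.0% of all genes, 7.86% higher and 9.15% lower, with a median of -0.05 against -0.01 over all genes. That count by limma was 0 without either shLuc library or either shIMPDH2 library, with 4 or 5 members at an unadjusted p under 0.05, and 9 without either shIMPA1 library. With all libraries edgeR called 5 and DESeq2 4. Of the 22 members, 15 lie on the X chromosome, and 7 of those were called in shIMPA1 and 4 in shIMPDH2, beside 37.9% and 20.2% of 499 protein-coding X-linked genes. Most members were not called. The shares called lower, 36.4% in shIMPA1 and 18.2% in shIMPDH2, were above those of all genes, and these differences in share were not tested. Both comparisons use the same shLuc libraries, so values that go the same way in both are not independent of each other.

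**Figure D3:**
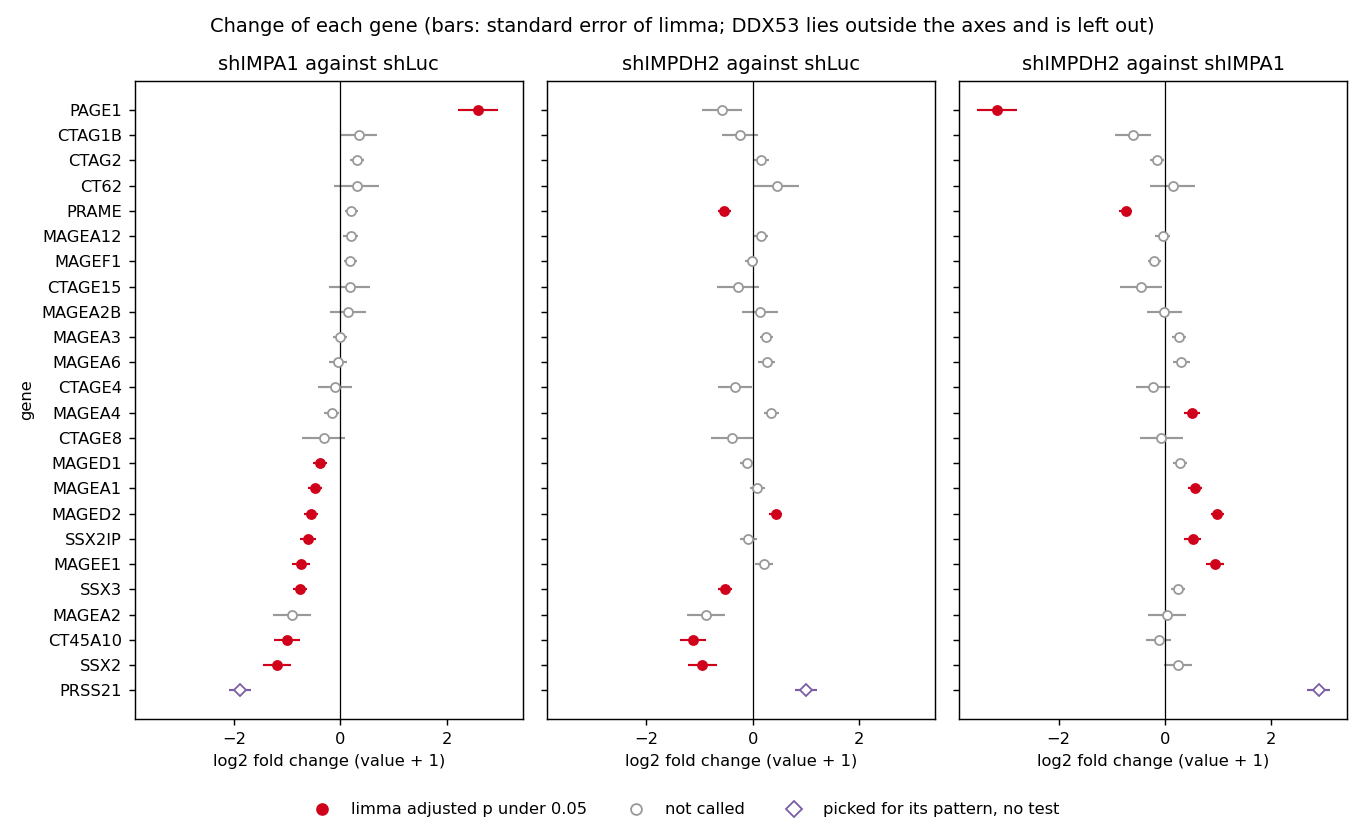
Log2 fold changes of 24 members on the log2(normalized count + 1) scale, with limma standard errors as bars, in the 3 comparisons (filled red circles have an adjusted p under 0.05, open circles were not called, open diamonds mark PRSS21, which was not tested). PAGE1 stands apart at 2.59 in shIMPA1. It passed the filter on low values only through that group, so its filled circles are no independent sign of a difference. DDX53, at -6.24 and -7.16, lies outside the axes.

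PAGE1, a small X-linked gene of the GAGE-like prostate-associated family, was higher in shIMPA1 than in the other lines. It was at 9.90 and 7.88 normalized counts in shLuc, at 56.5 and 59.5 in shIMPA1, and at 4.62 and 6.75 in shIMPDH2. Both shIMPA1 libraries stood far above the other 4, and PAGE1 passed the filter on low values only through them. The 132 reads in shIMPA1 against 20 in shLuc gave a depth-scaled ratio of 6.54 with a counting interval of 4.07 to 11.1. Since the filter admitted PAGE1 only through the group where it is high, the filtered test is no independent sign of its difference, and PAGE1 is left out of the counts above. With no filter on low values, PAGE1 differed from shLuc by 2.59 on the log2 scale in shIMPA1 (limma adjusted p = 0.000643) and by -0.58 in shIMPDH2, without a call there (limma adjusted p = 0.326). As for PRSS41, that setting hardly lifts the selection. The gene lies at chrX:49687450-49695993 on the minus strand.

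Both SSX genes read in these cells were lower in both knockdown lines. SSX proteins are nuclear corepressors, best known from their fusion with SS18 in synovial sarcoma. SSX3 was at 1561 and 1341 normalized counts in shLuc, at 929.8 and 779 in shIMPA1, and at 1037 and 989 in shIMPDH2, so that all 4 knockdown libraries lay below both controls. Its log2 fold change was -0.76 ± 0.13 in shIMPA1 (limma adjusted p = 0.0019), a call kept without each library (highest adjusted p = 0.0415), and -0.51 ± 0.13 in shIMPDH2 (limma adjusted p = 0.0243), a call lost without either shLuc or either shIMPDH2 library (highest adjusted p = 0.227). SSX2 was at 53.1 and 56.0 in shLuc, at 24.2 and 22.4 in shIMPA1, and at 26.6 and 29.2 in shIMPDH2, again with no overlap. It fell by 1.19 ± 0.27 and 0.94 ± 0.27 on the log2 scale (limma adjusted p = 0.00743 and 0.0354). Those calls were lost without either shLuc library, and the second also without either shIMPDH2 library (highest adjusted p = 0.0786 and 0.206) and with DESeq2. None of the 100-base windows of SSX2 was unique, since the copy SSX2B holds all of them, so its count is uncertain.

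Outside the member list were 3 listed genes that match the rule by name but are not protein-coding. Of these, MAGEA4-AS1 was higher in shIMPA1 by 0.71 ± 0.22 (limma adjusted p = 0.0307) and was not called in shIMPDH2 (limma adjusted p = 0.795). CTAGE7P was not called in either line (limma adjusted p = 0.916 and 0.876). The pseudogene SSX9P went further than the SSX genes above, in the same direction. It was at 49.5 and 49.9 in shLuc, at 1.80 and 0 in shIMPA1, and at 9.24 and 11.2 in shIMPDH2. Its 112 reads in shLuc against 2 in shIMPA1 gave a depth-scaled ratio of 56.5 with a counting interval of 15.3 to 472. It passed the filter on low values only with the shLuc libraries. With no filter, a setting that hardly lifts this selection, it was called lower in both lines (limma adjusted p = 0.000103 and 0.0186). In the filtered fit the second call was lost without either shLuc or either shIMPDH2 library (highest adjusted p = 0.159).

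CT45A10, of an X-linked family of multi-copy antigens, was at 131 and 116 in shLuc, at 72.7 and 50.9 in shIMPA1, and at 50.8 and 61.9 in shIMPDH2. The control libraries stood above all the others. The log2 fold changes were -1.01 ± 0.24 and -1.12 ± 0.24 (limma adjusted p = 0.00934 and 0.00936), and both calls were lost without either shLuc library, the second also without either shIMPDH2 library (highest adjusted p = 0.102 and 0.121). Only 36.6% of its 100-base windows were unique, most of the others being shared with CT45A7.

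The MAGEA genes had 1 call in shIMPA1 and 0 in shIMPDH2, beside 30.2% and 17.0% of all genes. These are the founding cancer-testis antigens, whose proteins bind ubiquitin ligases such as TRIM28. MAGEA1 was at 4688 and 4073 normalized counts in shLuc, at 2879 and 3405 in shIMPA1, and at 4383 and 4943 in shIMPDH2. The shIMPA1 libraries lay below the others, and the other groups overlapped. MAGEA1 was the 1 called gene of the 7 in shIMPA1, at a log2 fold change of -0.48 ± 0.13 (limma adjusted p = 0.0207), a call lost without either shLuc library (highest adjusted p = 0.173). In shIMPDH2 0 of the 7 were called by limma, edgeR or DESeq2, and 2 had an unadjusted limma p under 0.05. The family's median log2 fold change was -0.05 in shIMPA1 and 0.15 in shIMPDH2.

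MAGEA4 was at 6252 and 6182 in shLuc, at 4856 and 6361 in shIMPA1, and at 7490.4 and 8413 in shIMPDH2. MAGEA3 was at 3420.2 and 3109 in shLuc, at 2989 and 3565 in shIMPA1, and at 3701 and 4124 in shIMPDH2. MAGEA6 was at 2354 and 2238, at 1868 and 2642, and at 2522 and 3019.8 in the same order. In MAGEA4, MAGEA3 and MAGEA6 both shIMPDH2 libraries lay above both controls, while the shIMPA1 libraries overlapped the controls. With 2 libraries a group, such an order often arises without any difference, so it is no sign of one by itself. No difference of these 3 genes from shLuc was called (smallest limma adjusted p = 0.122, of MAGEA4 in shIMPDH2). Without either shIMPA1 library all 3 were called higher in shIMPDH2, with limma adjusted p = 0.0118 and 0.0112 for MAGEA4, 0.0492 and 0.0484 for MAGEA3 and 0.0386 and 0.0378 for MAGEA6, and without shIMPA1 replicate 2 MAGEA4 was called lower in shIMPA1 (limma adjusted p = 0.0474). MAGEA12 was at 1952 and 1681, at 1849.8 and 2323, and at 1914 and 2114, with all groups overlapping, and was called higher in shIMPA1 without shIMPA1 replicate 1 alone (limma adjusted p = 0.0156). MAGEA3 shared 34.9% of its windows with MAGEA6, which shared 33.0% of its own, and MAGEA2 and MAGEA2B had 10.6% and 17.6% unique windows, so the split of reads within these pairs is uncertain. The antisense gene MAGEA4-AS1 overlaps the span of MAGEA4 by 1460 bases, and the labels do not say whether the libraries were stranded.

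CTAG2, also known as LAGE-1 and a close relative of NY-ESO-1, was at 4539.9 and 3951 in shLuc, at 4821 and 5754 in shIMPA1, and at 4499.6 and 5016 in shIMPDH2. It was not called in shIMPA1, where both libraries lay above the controls (log2 fold change 0.31 ± 0.14, limma adjusted p = 0.104, and 0.00449 without shIMPA1 replicate 1), nor in shIMPDH2, where they overlapped (limma adjusted p = 0.436). CTAG1B, which encodes NY-ESO-1 itself, was near the low end of the members, at 16.2 to 27.6 over the 6 libraries. Only 15.1% of its transcript windows were unique, and 84.9% were shared with its copy CTAG1A. Since only uniquely mapped reads were counted, the low values of CTAG1B do not show that it was weakly transcribed.

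PRAME, a substrate receptor of cullin ligases that represses retinoic acid receptor signalling, set the knockdown lines apart. It was at 678 and 745 in shLuc, at 837 and 802 in shIMPA1, and at 494 and 487 in shIMPDH2, and no groups overlapped. The fall of 0.53 ± 0.12 on the log2 scale in shIMPDH2 was called (limma adjusted p = 0.0144), though not without either shLuc or either shIMPDH2 library (highest adjusted p = 0.148). The difference of 0.21 ± 0.12 in shIMPA1 was not (limma adjusted p = 0.238).

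The broadly transcribed relatives included 4 of the 8 genes called lower in shIMPA1. MAGED2, a ubiquitous MAGE protein known for its part in renal salt transport, was at 2796.5 and 2672 in shLuc, at 1712 and 2015 in shIMPA1, and at 3438 and 3961 in shIMPDH2. Its groups did not overlap, with shIMPA1 below and shIMPDH2 above the control. MAGED2 fell by 0.56 ± 0.13 in shIMPA1 and rose by 0.43 ± 0.13 in shIMPDH2 (limma adjusted p = 0.0083 and 0.0414). Neither call held without a shLuc library, nor the second without a shIMPDH2 library (highest adjusted p = 0.0799 and 0.329). MAGEE1, a partner of dystrobrevin, was at 185 and 214 in shLuc, at 118 and 119.9 in shIMPA1, and at 213 and 249 in shIMPDH2, and fell in shIMPA1 by 0.74 ± 0.17 (limma adjusted p = 0.00816, and 0.102 without shLuc replicate 2).

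MAGED1, an adaptor of the neurotrophin receptor p75, was at 1648 and 2042 in shLuc, at 1381 and 1425 in shIMPA1, and at 1732 and 1685 in shIMPDH2. It fell in shIMPA1 by 0.39 ± 0.13 (limma adjusted p = 0.0428), a call lost without shLuc replicate 2, where the value was -0.23, or without either shIMPDH2 library (highest adjusted p = 0.329). SSX2IP, a centrosomal protein named for its binding to SSX2, was at 2690.3 and 2553 in shLuc, at 2061 and 1439 in shIMPA1, and at 2449 and 2511 in shIMPDH2, and fell in shIMPA1 by 0.61 ± 0.16 (limma adjusted p = 0.0143, and 0.113 at the highest without a shLuc library). The shIMPA1 libraries of both genes lay below the controls, and those of SSX2IP were themselves far apart, with a log2 fold change of -0.35 without shIMPA1 replicate 2. MAGEF1 was at 2244 and 2279.5 in shLuc, at 2375 and 2783 in shIMPA1, and at 2139 and 2338 in shIMPDH2 and was not called in either line (limma adjusted p = 0.286 and 0.944, the first 0.0495 without shIMPA1 replicate 1).

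The remaining 7 members, CT62, CTAG1B, CTAGE4, CTAGE8, CTAGE15, MAGEA2 and MAGEA2B, had between 9.0 and 39.4 normalized counts in each library and no call in any comparison. MAGEA2 came nearest, at 35.1 and 39.4 in shLuc, at 26.9 and 13.8 in shIMPA1, and at 18.5 and 21.4 in shIMPDH2 (limma adjusted p = 0.0794 and 0.122). Its shIMPA1 difference was called without shIMPA1 replicate 1 (limma adjusted p = 0.00282), and its shIMPDH2 difference without shIMPA1 replicate 1 or 2 (limma adjusted p = 0.0289 and 0.0198). The 3 CTAGE genes are copies of MIA2, an endoplasmic reticulum export gene that encodes cTAGE5, and their own windows were 2.01% to 4.82% unique. MIA2 was at 269 and 309 in shLuc, at 967 and 1079 in shIMPA1, and at 321 and 370.0 in shIMPDH2. It rose by 1.82 ± 0.14 in shIMPA1 (limma adjusted p = 1.26e-05), while the CTAGE genes had values of -0.32 to 0.17 there and no call.

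Set directly against each other, shIMPDH2 and shIMPA1 had 6 of the 22 members called, 5 higher and 1 lower in shIMPDH2, beside 26.1% of all genes, 13.5% higher and 12.6% lower. The median was 0.10 and that of all genes -0.00. MAGED2 was higher in shIMPDH2 by 0.99 ± 0.13 and MAGEE1 by 0.95 ± 0.17 (limma adjusted p = 0.000377 and 0.00269), and MAGEA1 by 0.57 ± 0.13, SSX2IP by 0.53 ± 0.16 and MAGEA4 by 0.51 ± 0.15 (limma adjusted p = 0.0108, 0.0302 and 0.0246). PRAME was lower by 0.74 ± 0.12 (limma adjusted p = 0.00178). PAGE1, outside the count, was lower at a log2 fold change of -3.16 with no filter on low values (limma adjusted p = 0.000216). That setting hardly lifts the selection of PAGE1 through shIMPA1, so its call is no independent sign of a difference. The calls of MAGED2 and PRAME held without each library, while those of MAGEA1, MAGEA4 and SSX2IP were lost without either shIMPDH2 library and that of MAGEE1 without shIMPDH2 replicate 2 (highest adjusted p = 0.135, 0.208, 0.18 and 0.0547). MAGEA4 and SSX2IP also lost theirs without either shLuc library, and further without shIMPA1 replicate 1 and shIMPA1 replicate 2, in that order, and the value of MAGEA4 was 0.32 without shIMPA1 replicate 1. MAGEF1 and SSX3 gained a call without shIMPA1 replicate 1 (limma adjusted p = 0.0414 and 0.0131), and MAGEA3 and MAGEA6 without shIMPA1 replicate 2 (limma adjusted p = 0.0164 and 0.000152). The count of 6 was 3 without shIMPDH2 replicate 1 and 2 without shIMPDH2 replicate 2. Over the 3 comparisons, 10 calls of members were lost in a limma fit without the mean-variance trend. These were the calls of MAGEA1, MAGED1, MAGED2 and SSX2IP in shIMPA1, of MAGED2, PRAME and SSX3 in shIMPDH2, and of MAGEA1, MAGEA4 and SSX2IP between the knockdown lines. With only the compared groups in the fit, MAGED1 in shIMPA1 and MAGEA4 and SSX2IP between the lines were not called.

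Promoter windows were found in the RefSeq table for 20 of the 25 members, 32 windows in all. A Sp1 box GGGCGG lay in windows of 8 of these genes, the Ets core CCGGAA in 6, the E-box CACGTG in 4 and the E2F core GGCGGGA in 4, each searched on both strands, where the E2F core can overlap a Sp1 box. By window the shares were 37.5%, 18.8%, 12.5% and 15.6%, beside 42.6%, 14.5%, 6.35% and 13.5% of all windows in the table. The median window held 11 CpG pairs among the members and 11 in the whole table. All members are protein-coding, and 22199 of the windows belong to protein-coding genes. Of these, 53.7% held a Sp1 box, 17.95% the Ets core, 7.37% the E-box and 17.2% the E2F core. Their median was 16 CpG pairs, above that of the members, and the differences were not tested.

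Genes whose products silence germline genes were next set beside the members. The counts of this and the following lists stand beside 14.0% of all genes higher and 16.2% lower in shIMPA1, and 7.86% higher and 9.15% lower in shIMPDH2. In shIMPA1, the list of H3K9 methylation and histone deacetylation genes had 8 of 15 called, all lower, at a median log2 fold change of -0.51, and in shIMPDH2 1 called, also lower, at a median of -0.11. CBX1 and CBX5, which encode heterochromatin protein 1 isoforms, fell in shIMPA1 by 0.99 ± 0.14 and 0.84 ± 0.16, and EHMT2, an H3K9 methyltransferase, and TRIM28 by 0.70 ± 0.15 and 0.61 ± 0.13 (limma adjusted p = 0.000625, 0.00339, 0.00675 and 0.00653). CBX1 was at 3058 and 3810.0 in shLuc and at 1901 and 1553 in shIMPA1, without overlap. Without 1 library the count in shIMPA1 ran from 2, without shLuc replicate 2, to 11, with 5 without shLuc replicate 1, and in shIMPDH2 it was 0 without any shLuc or shIMPDH2 library and 3 and 4 without shIMPA1 replicate 1 and 2. EHMT2, TRIM28 and CBX5 lost their calls without shLuc replicate 2, and EHMT2 also without shLuc replicate 1 (highest adjusted p = 0.0633, 0.0798 and 0.051). Without shIMPA1 replicate 2 the value of EHMT2 was -0.44.

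Of 12 DNA methylation writers, readers and erasers, 3 were higher and 4 lower in shIMPA1, at a median of -0.07, and 2 higher and 1 lower in shIMPDH2, at a median of -0.13. UHRF1, which guides DNMT1 to replicating DNA, was at 2244 and 2404 in shLuc, at 1062 and 520.3 in shIMPA1, and at 1734 and 1748 in shIMPDH2. It fell by 1.64 ± 0.25 in shIMPA1, and the chromatin remodeller HELLS by 1.57 ± 0.26 (limma adjusted p = 0.000766 and 0.0015). DNMT1, the maintenance methyltransferase, named after its values were seen, fell there by 1.34 ± 0.25 (limma adjusted p = 0.00255). Without shIMPA1 replicate 2 the values of HELLS and DNMT1 were -1.0 and -0.84. TDG, a thymine glycosylase of active demethylation, rose in both lines by 0.85 ± 0.13 and 0.98 ± 0.13 (limma adjusted p = 0.00103 and 0.000765), as did the methyl-CpG reader ZBTB38 by 0.79 ± 0.14 and 0.59 ± 0.14 (limma adjusted p = 0.00211 and 0.0176). ZBTB38's second call was lost without either shLuc or either shIMPDH2 library (highest adjusted p = 0.191). Without 1 library, 5 to 8 genes of the list were called in shIMPA1, and in shIMPDH2 1 without any shLuc or shIMPDH2 library and 7 without either shIMPA1 library.

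The germline repressor complex PRC1.6 had 3 higher and 3 lower of 13 in shIMPA1 and 1 higher and 1 lower in shIMPDH2, at medians of 0.20 and 0.10. Its 6 calls in shIMPA1 became 2 and 0 without shLuc replicate 1 and 2 and 3 without either shIMPDH2 library, and its 2 calls in shIMPDH2 became 4 without either shIMPA1 library and 0 without any other. Of 4 listed activators of cancer-testis promoters, 1 was higher in shIMPA1, ETS2, at 0.74 ± 0.24 (limma adjusted p = 0.0362), with 1.19 without shIMPA1 replicate 1 and 0.29 without shIMPA1 replicate 2, and it lost its call without any 1 library other than shIMPA1 replicate 1 (highest adjusted p = 0.201). In shIMPDH2 0 of these 4 were called by limma, edgeR or DESeq2, with 1 at an unadjusted p under 0.05. Among 11 MAGE relatives and ubiquitin ligase partners, 2 were higher and 1 lower in shIMPA1. Those 2 include MAGEL2, which passed the filter on low values only through shIMPA1, the group where it is high. The MAGEL2 call is thus no independent sign of a difference, and it was lost with a pseudocount of 0.5 and without the mean-variance trend. Of the 11, 0 were called in shIMPDH2 by limma or edgeR and 1 by DESeq2, with 3 at an unadjusted limma p under 0.05. Of 6 PRAME partners 1 was lower in shIMPA1 and 1 higher in shIMPDH2, and of 8 BET, SSX and helicase relatives 2 and 1 were higher. In shIMPA1 the MAGE relatives had 1 and 0 calls without shLuc replicate 1 and 2 and 6 without shIMPA1 replicate 1, the PRAME partners 3 without shIMPA1 replicate 1 and 0 without any other, and the BET list 1 without any shLuc or shIMPDH2 library. Without either shIMPA1 library each of these 3 lists had 3 calls in shIMPDH2.

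Cancer-testis antigens outside the rule went both ways. Of 40 on the list 20 were listed and 19 tested, with 2 higher and 5 lower in shIMPA1, at a median of -0.12, and 3 called in shIMPDH2, all lower, at a median of -0.21. TMEFF1 was lower in both lines by 1.17 ± 0.32 and 1.88 ± 0.32 (limma adjusted p = 0.0182 and 0.00268), while the spermatid kinase gene TSSK6 was higher in shIMPA1 by 0.79 ± 0.22 (limma adjusted p = 0.0191). TMEFF1 lost its first call without either shLuc library and its second without shLuc replicate 2 (highest adjusted p = 0.165 and 0.0675), and TSSK6 its call without either shLuc library or shIMPA1 replicate 2 (highest adjusted p = 0.127). Without 1 library the list's count ran from 0, without shLuc replicate 1, to 9 in shIMPA1, with 1 without shLuc replicate 2 and 4 without either shIMPDH2 library, and from 0, without shLuc replicate 2, to 9 without either shIMPA1 library in shIMPDH2.

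Of 18 listed meiosis and piRNA genes, 2 were higher and 7 lower in shIMPA1, at a median of -0.08, and 3 were called in shIMPDH2, all lower, at a median of -0.36. MAEL, a piRNA pathway gene of germ cells, was close to unread in shIMPA1. It was at 26.1 and 24.5 in shLuc, at 0.898 and 0.863 in shIMPA1, and at 12.7 and 16.9 in shIMPDH2. Its 57 reads in shLuc against 2 in shIMPA1 gave a ratio of 28.75 with a counting interval of 7.6 to 243, and it was called lower there (limma adjusted p = 0.000181) and not in shIMPDH2 (limma adjusted p = 0.286). DMRT1, a transcription factor of the gonad, was lower in both lines, at log2 fold changes of -1.87 ± 0.33 and -1.54 ± 0.33, and so was TEX15, a silencing factor of male germ cells, at -1.33 ± 0.25 and -1.13 ± 0.25 (limma adjusted p = 0.00211, 0.0106, 0.00258 and 0.011). Without either shIMPDH2 or either shLuc library the shIMPDH2 calls of both were lost, and that of DMRT1 in shIMPA1 without shLuc replicate 2 (highest adjusted p = 0.148, 0.118 and 0.0504). TEX19 was higher in shIMPA1 by 0.66 ± 0.21 and lower in shIMPDH2 by 0.99 ± 0.21 (limma adjusted p = 0.033 and 0.00871), of which the first was lost without shLuc replicate 2, at 0.41, or either shIMPDH2 library, and the second without shLuc replicate 1 or either shIMPDH2 library (highest adjusted p = 0.286 and 0.134). TEX15 stood at -0.83 in shIMPA1 without shIMPA1 replicate 2. The list's count ran from 2, without shLuc replicate 2, to 12 in shIMPA1, with 5 without shLuc replicate 1. In shIMPDH2 it was 8 without either shIMPA1 library, 1 without shLuc replicate 2 and 0 without any other.

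All 8 mitotic genes that antigen catalogues also list were lower in shIMPA1, at a median of -1.36, and 0 were called in shIMPDH2 by limma, edgeR or DESeq2, with 0 at an unadjusted p under 0.05, at a median of -0.20. DESeq2 called 5 of the 8 in shIMPA1. KNL1, a kinetochore scaffold gene, was at 2802 and 2554 in shLuc, at 1432 and 494 in shIMPA1, and at 2362 and 2064 in shIMPDH2. The shIMPA1 libraries lay below the others and were far apart. KNL1 fell by 1.67 ± 0.35 there (limma adjusted p = 0.00479, and 0.0619 without shLuc replicate 1), or by 0.90 without shIMPA1 replicate 2. Without shLuc replicate 1 the count in shIMPA1 was 2 and without shLuc replicate 2 it was 5, and in shIMPDH2 it was 4 and 3 without shIMPA1 replicate 1 and 2. The part of these 8 genes in the results on the members was not tested.

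A list of genes related to PRSS21 had 10 listed genes, 7 of them serine proteases, PRSS41 and PRSS22 included, beside the inhibitor genes SPINT1 and SPINT2 and the receptor gene F2RL1. In shIMPA1 3 were higher and 1 lower, and in shIMPDH2 4 were higher and 1 lower, at medians of 0.35 and 0.17. Those 4 include PRSS41, which passed the filter on low values only through shIMPDH2. The lower gene was F2RL1 in both lines. TMPRSS2, the androgen-regulated prostate protease, was at 351 and 402 in shLuc, at 816 and 1479 in shIMPA1, and at 1482 and 1549.8 in shIMPDH2, and rose by 1.55 ± 0.22 and 2.01 ± 0.22 (limma adjusted p = 0.000576 and 0.000197). F2RL1, a receptor that such proteases cleave, fell by 0.46 ± 0.13 and 0.83 ± 0.13 (limma adjusted p = 0.0212 and 0.00168), and lost its first call without either shLuc library (highest adjusted p = 0.165). Without either shLuc library the count was 1 in shIMPA1 and 3 in shIMPDH2, and without either shIMPDH2 library it was 2 in shIMPDH2.

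**Figure D4:**
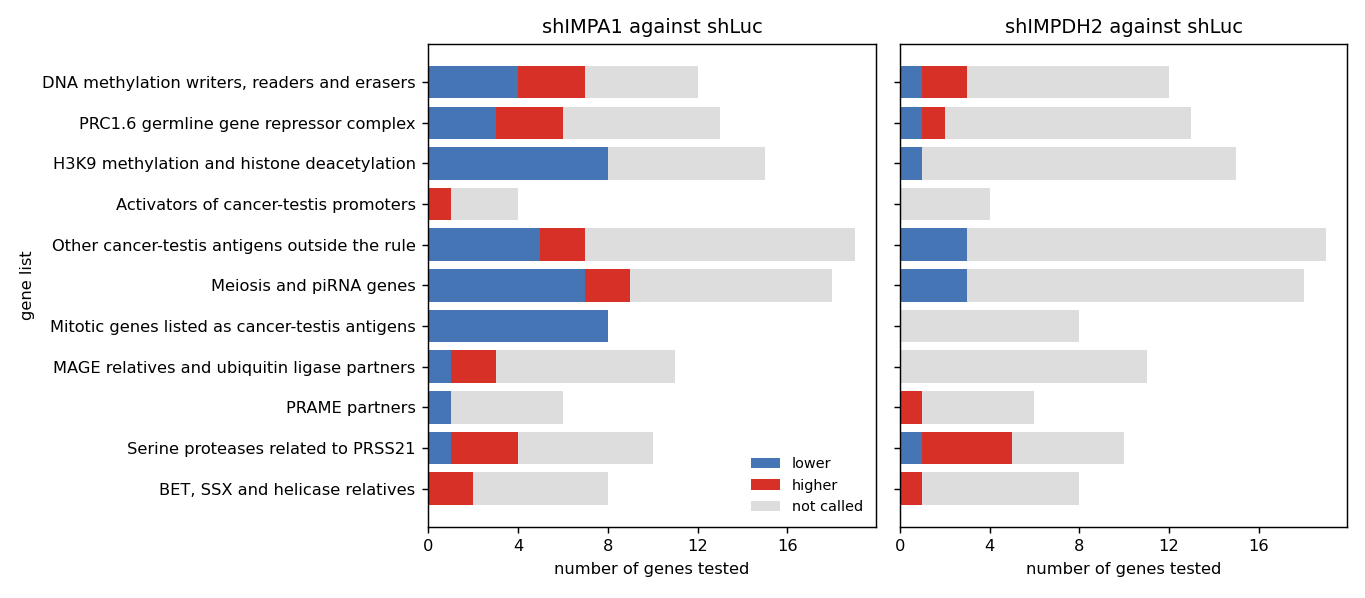
Number of genes of each list tested that were lower (blue), higher (red) or not called (grey) by limma at an adjusted p under 0.05, in shIMPA1 (left) and shIMPDH2 (right) against shLuc. All 8 mitotic genes are lower in shIMPA1 and 0 of them are called in shIMPDH2, and the H3K9 and deacetylase list shows 8 lower genes in shIMPA1 and 1 in shIMPDH2.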

How the data were processed

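The submitters' processing notes name GRCh38, Trimmomatic 0.36, STAR 2.5.2b, featureCounts of Subread 1.5.2 and DESeq2, and per the labels' protocols only uniquely mapped reads in exons were counted. The deposited values are a signal, gene counts divided by 1 size factor per library. Dividing by the value of 1 read (0.863 to 1.16) gave whole reads, within 0.05, for 99.98% to 100% of the values of each library. Neither the annotation release nor the strand used in counting is given in the sources used here. Because these are not raw counts, limma took the place of the count test first foreseen. Symbols were found for 17750 of 17811 identifiers. The 17742 genes with at least 10 in at least 2 libraries were tested with limma 3.58.1 (R 4.3.3) on log2(value + 1) with a mean-variance trend and 1 coefficient for each of the 3 groups, Benjamini-Hochberg adjusted over all of them and called under 0.05, after tests on simulated data. Fold changes are on that scale, which understates those of low genes, and TMM scaling shifted no library by more than 0.0116 (log2). edgeR 4.0.16 and DESeq2 1.42.0 were run on the recovered reads as alternatives, and edgeR called 5480 genes in shIMPA1 and 3010 in shIMPDH2 against shLuc and 4551 between them. Named were the targets, all members, up to 4 called genes of each list with the smallest p, and the 4 listed neighbours on each side of DDX53 and PRSS21. Members and lists were chosen with earlier results of these data known. The authors also deposited a column of log2 fold changes and columns of p-values and adjusted p-values, for a comparison that the file headers do not name, and these were not used.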

Additional observations from a re-analysis of the deposited data

How the results depend on the processing

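Each result was recomputed under 16 alternatives. Of 21 calls of members, 5 were kept in every alternative that tested the gene, those of SSX3 in shIMPA1, of MAGED2 and PRAME between the lines, and 2 of PAGE1, whose passage through the filter by its high group makes their persistence no sign of stability. No call reversed, and 13 of 48 differences without a call gained one in at least 1 alternative. Counts here include PAGE1. Without the mean-variance trend, 5, 2 and 4 members were called in shIMPA1 against shLuc, shIMPDH2 against shLuc and shIMPDH2 against shIMPA1, and 3508, 1727 and 2909 of all genes, against 5361, 3018 and 4627 with it. With only the 2 groups compared, shIMPDH2 against shLuc gave 9 members and 6382 genes. Without 1 library, the members called ranged from 2 to 12, 0 to 9 and 3 to 7, and all genes called from 2147 to 7940, 773 to 6386 and 1430 to 7052. In such a fit the lone library is assumed to vary like those of the other groups. With the replicate number as a block, 9, 5 and 7 members and 5298, 2939 and 4537 genes were called, with no call of a member differing from the fit without it. The labels state no pairing behind the numbers, and deviations of libraries with the same number correlated at 0.0418, -0.0488 and 0.000266. Pseudocount, filter, TMM scaling and edgeR lost no call of a member, and DESeq2 lost 1. With 2 libraries a group, and 8 to 45 reads per library behind the 7 low members without any call, a missing call does not show that such genes did not differ.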
